A study of Mus musculus with 12 samples.

Results

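BRM and BRG1 are the alternative catalytic subunits of the SWI/SNF (BAF) chromatin remodelling complexes, and are encoded in the mouse by Smarca2 and Smarca4. Each complex carries a single ATPase, either BRM or BRG1, which spends ATP to slide or evict nucleosomes, and both proteins end in a bromodomain that binds acetylated lysine. In muscle precursors the complexes are known as cofactors of MyoD, the transcription factor that commits cells to the muscle lineage. The transcripts of the 2 genes were followed here in C2C12 cells, an immortalized mouse myoblast line that forms myotubes when serum is reduced. They are 2 of the 19057 genes named on the Illumina BeadChip, and 6 of its 45281 probes were annotated to them, 5 to Smarca2 and 1 to Smarca4. Every probe annotated to either gene was kept, whatever its values.

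The 12 samples formed 6 groups of 2. C2C12 cells were transfected at 100 nM with a scrambled siRNA (siSCR), with an siRNA against BRM (siBRM) or with an siRNA against BRG1 (siBRG1), and were harvested after 18 h or 48 h in differentiation medium. The same siSCR arrays served the siBRM and the siBRG1 comparison of their time, so these comparisons are not independent. No source used here says that replicates came from separate cultures, so every p-value reflects no more than how far these particular samples scatter, which may be technical. The siRNA sequences are not given either. The series asks what each ATPase regulates during differentiation, and the level of each target on each array checks the labels on which that rests. In bulk RNA, fewer transfected cells and less RNA per cell cannot be told apart. RNA was measured, not protein.

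The array barcodes place the 18 h samples of replicate 1 on a first BeadChip, the 48 h samples of replicate 1 on a second, and all of replicate 2 on the remaining one. There were thus 4 sets of 3 arrays, each with 1 siSCR, 1 siBRM and 1 siBRG1 array of the same replicate and time on the same BeadChip. The mean signal of an array ran from 513 to 1644 and the share of probes detected (detection p under 0.05) from 27.3% to 39.4%, with the brightest arrays in replicate 2. Of 8 skeletal muscle markers, 6 were detected on all 12 arrays (Myod1, Myog, Des, Cdh15, Acta1 and Tnnc2), Ckm on 9 and Myf5 on 0. Of 10 measured markers of endothelial, blood, fat and epithelial cells, 8 were detected on 0 arrays, the keratin gene Krt8 on 6 and the cadherin gene Cdh1 on 3.

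Only 1 of the 5 Smarca2 probes gave a signal clear of background throughout. ILMN_3154810, designed on the transcript NM_011416, was detected on 12 of 12 arrays, with a lowest signal of 455.7, a median of 822.4 and a highest of 1663. Between 39 and 67 beads carried it on an array, and the bead standard error was 3.22% to 6.65% of the signal. ILMN_2598033 was designed on the same transcript but was detected on 0 arrays, with signals of 240.4 to 281.3. ILMN_3075712, also on that transcript, was detected on 1 array, that of siSCR at 48 h in replicate 2, and had signals of 202.7 to 333.5. The probes of 1 transcript therefore read very differently above background, and their levels cannot be set against each other. ILMN_1240192, on the cDNA clone AK090160, was detected on 3 arrays, all of replicate 2, with signals of 221.6 to 336.3. ILMN_1252932, on the separate Smarca2 transcript NM_026003, was detected on 0 arrays, and its signals of 179.3 to 237 put no reading on that transcript.

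The single Smarca4 probe, ILMN_2735792 on the transcript NM_011417, was detected on 10 of 12 arrays. Its signal had a lowest value of 246.7, a median of 479.7 and a highest of 1294, from 34 to 55 beads with a bead standard error of 3.31% to 7.18%. The 2 arrays on which it was not detected were those of siBRG1 in replicate 1, with detection p of 0.181 at 18 h and 0.101 at 48 h. A probe entered the tests when it was detected on at least 2 arrays, which kept 3 of the 6 probes, namely ILMN_3154810, ILMN_1240192 and ILMN_2735792. Below, Smarca2 stands for ILMN_3154810 and Smarca4 for ILMN_2735792 unless another probe is named.

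**Figure D1:**
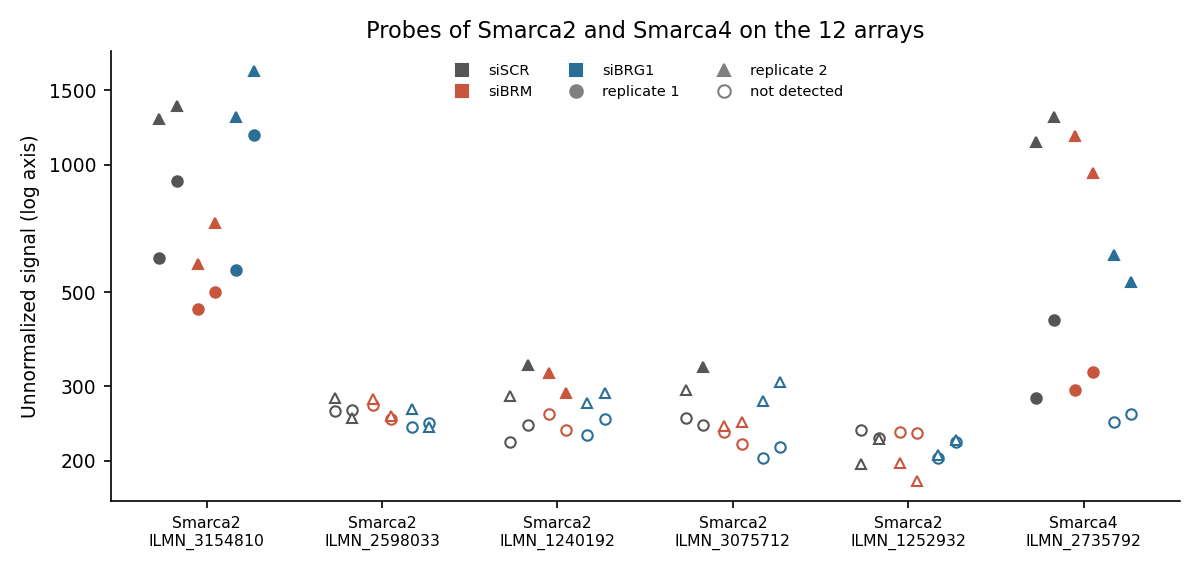
Unnormalized signal (vertical log axis) of the 5 Smarca2 probes and the Smarca4 probe on the 12 arrays; colours give the siRNA, circles replicate 1, triangles replicate 2, open symbols signals that were not detected, and within a colour the left symbols are 18 h and the right ones 48 h. All symbols of ILMN_3154810 are filled, 2 of ILMN_2735792 are open, and most of the other probes are open, with signals between 179.3 and 336.3.

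Smarca2 was lower with siBRM than with siSCR in each of the 4 sets, as were 4.7% of the 10847 tested genes. At 18 h its unnormalized signal was 455.7 ± 19.6 (bead standard error) with siBRM against 602.9 ± 28.4 with siSCR in replicate 1, and 582.7 ± 27.7 against 1280 ± 65.7 in replicate 2. At 48 h it was 500.3 ± 27 against 914.2 ± 34.3 in replicate 1, and 730.6 ± 30.3 against 1374 ± 46.7 in replicate 2. Every siBRM array was thus dimmer than the siSCR array beside it, and neither pair of groups overlapped, although siBRM of replicate 2 at 18 h lay close to siSCR of replicate 1. A lower siBRM group without overlap was seen on this scale in 1.51% of tested genes at 18 h and in 7.98% at 48 h. The gaps were 4.26 to 11.6 times the bead standard error of the difference, an error that covers the beads of 1 array and neither the culture nor the hybridization.

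After background correction and quantile normalization, 61% of the siSCR level of Smarca2 was left in replicate 1 and 32.3% in replicate 2 at 18 h. At 48 h 61.3% and 71.9% were left. On this log2 scale the siBRM values at 18 h (9.72 and 7.67) overlapped those of siSCR (10.44 and 9.30), as they did at 48 h (9.49 and 8.73 against 10.20 and 9.21). The depth of the knockdown at 48 h depended on the scaling. The siBRM array of replicate 2 at 48 h had a mean signal of 1218 against 1644 for siSCR, and with no normalization between arrays 46.1% of Smarca2 was left there and 41.3% in replicate 1. On that scale the median tested gene also differed from siSCR, by -0.46 in replicate 2 and -0.31 in replicate 1 on the log2 scale, and relative to it Smarca2 differed by -0.65 and -0.96. Over 5 ways of scaling the lowest and highest remaining levels were 59.2% and 66.2% for replicate 1 at 18 h, 32.3% and 49.4% for replicate 2 at 18 h, 41.3% and 67.3% for replicate 1 at 48 h, and 46.1% and 79.4% for replicate 2 at 48 h. All of them lay below siSCR. Each highest level came from the values without background correction or from the authors' normalized table, which nearly equals them.

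Smarca4 was likewise lower with siBRG1 than with siSCR in each of the 4 sets, as were 10.2% of tested genes. At 18 h its unnormalized signal was 246.7 ± 12.2 (bead standard error) with siBRG1 against 280.8 ± 9.31 with siSCR in replicate 1, and 613.8 ± 29.8 against 1132 ± 57.6 in replicate 2. At 48 h it was 258.3 ± 14.7 against 430.5 ± 30.9 in replicate 1, and 528.9 ± 36.8 against 1294 ± 58.5 in replicate 2. Replicate 1 at 18 h gave the smallest gap, 2.22 times its bead standard error, and there even the siSCR array was only just detected. The unnormalized groups overlapped at both times. The other 3 gaps were 5.03 to 11.1 times the bead standard error.

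Because siBRG1 of replicate 1 was not well above background, only a bound can be set there, taken against the lowest detected signal of the array. In replicate 1 Smarca4 was at least 3.98-fold lower at 48 h on the background-corrected, quantile-normalized scale. With quantile normalization but without background correction it was at least 1.94-fold lower. At 18 h these bounds were only at least 1.07-fold and at least 1.03-fold lower. Each bound takes the siSCR value as measured, without its error. In replicate 2, where both arrays detected it, 48.5% of the siSCR level was left at 18 h and 37.2% at 48 h after quantile normalization. Across the 5 scalings these shares ran from 44.3% to 63% and from 29.9% to 54.8%. The highest came from the values without background correction or from the authors' normalized table. The mean signal of the siBRG1 array was below that of siSCR in each set (513 against 522 and 665 against 794 in replicate 1, 1349 against 1464 and 1418 against 1644 in replicate 2). With no normalization between arrays, Smarca4 in replicate 2 differed from the median tested gene by -1.06 at 18 h and -1.57 at 48 h. On the normalized log2 scale the siBRG1 values at 48 h (6.14 and 7.68) did not overlap those of siSCR (8.60 and 9.10). A lower group without overlap was also seen in 10.5% of the 10847 tested genes in that comparison. At 18 h the groups overlapped, with 6.09 and 8.04 for siBRG1 against 7.46 and 9.09.

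**Figure D2:**
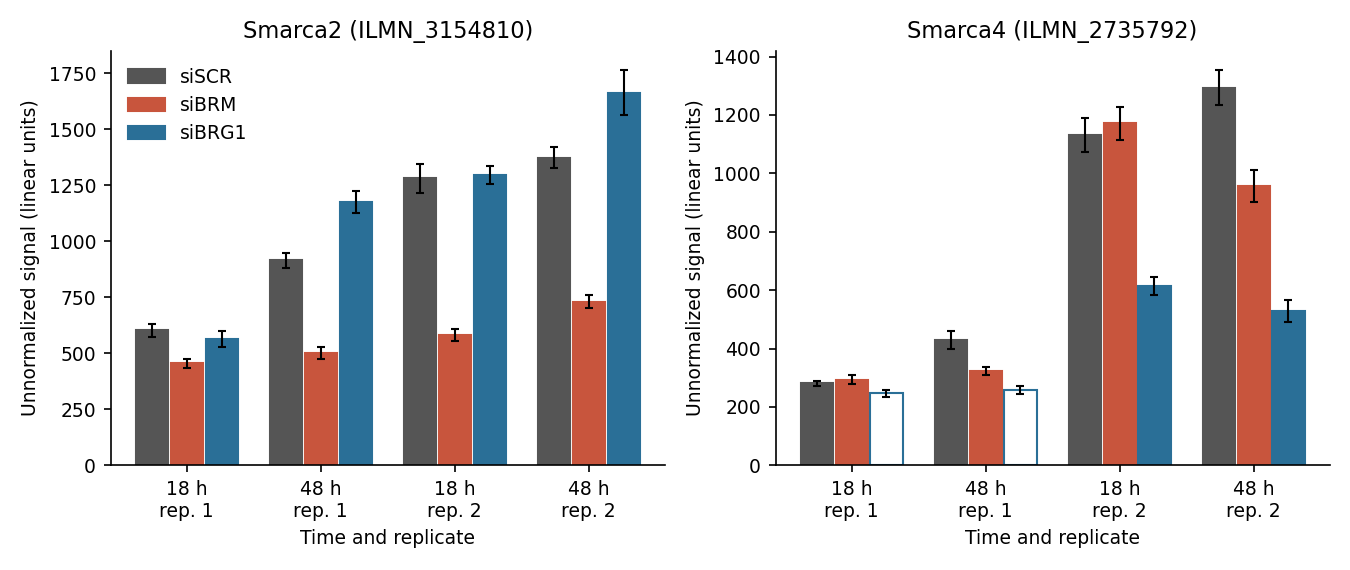
Unnormalized signal of Smarca2 (left) and Smarca4 (right) on each array, grouped by time and replicate, with bars from 0 and whiskers of 1 bead standard error; open bars were not detected. The siBRM bar is the lowest of its set for Smarca2 and the siBRG1 bar the lowest of its set for Smarca4 in all 4 sets.

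Read against all 10847 tested genes, the target was at the far end of the differences in some sets and not in others. With siBRM at 18 h in replicate 2, Smarca2 ranked 3 from the lowest difference from siSCR of all tested genes, with 0.0277% of genes as low. In replicate 1 at 18 h 9.89% of genes were as low, and at 48 h 11% in replicate 1 and 16.3% in replicate 2. With siBRG1 in replicate 2, where the probe was detected, Smarca4 was among the lowest 1% of genes at 18 h and the lowest 1.79% at 48 h. In replicate 1 it has no firm rank, as siBRG1 was at background. These ranks hold for quantile-normalized values. Under median scaling Smarca2 ranked 247 and 445 in replicate 1, and 3 and 1574 in replicate 2, at 18 h and 48 h. On that scale Smarca4 in replicate 2 was among the lowest 1.28% and 1.86% of genes.

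**Figure D3:**
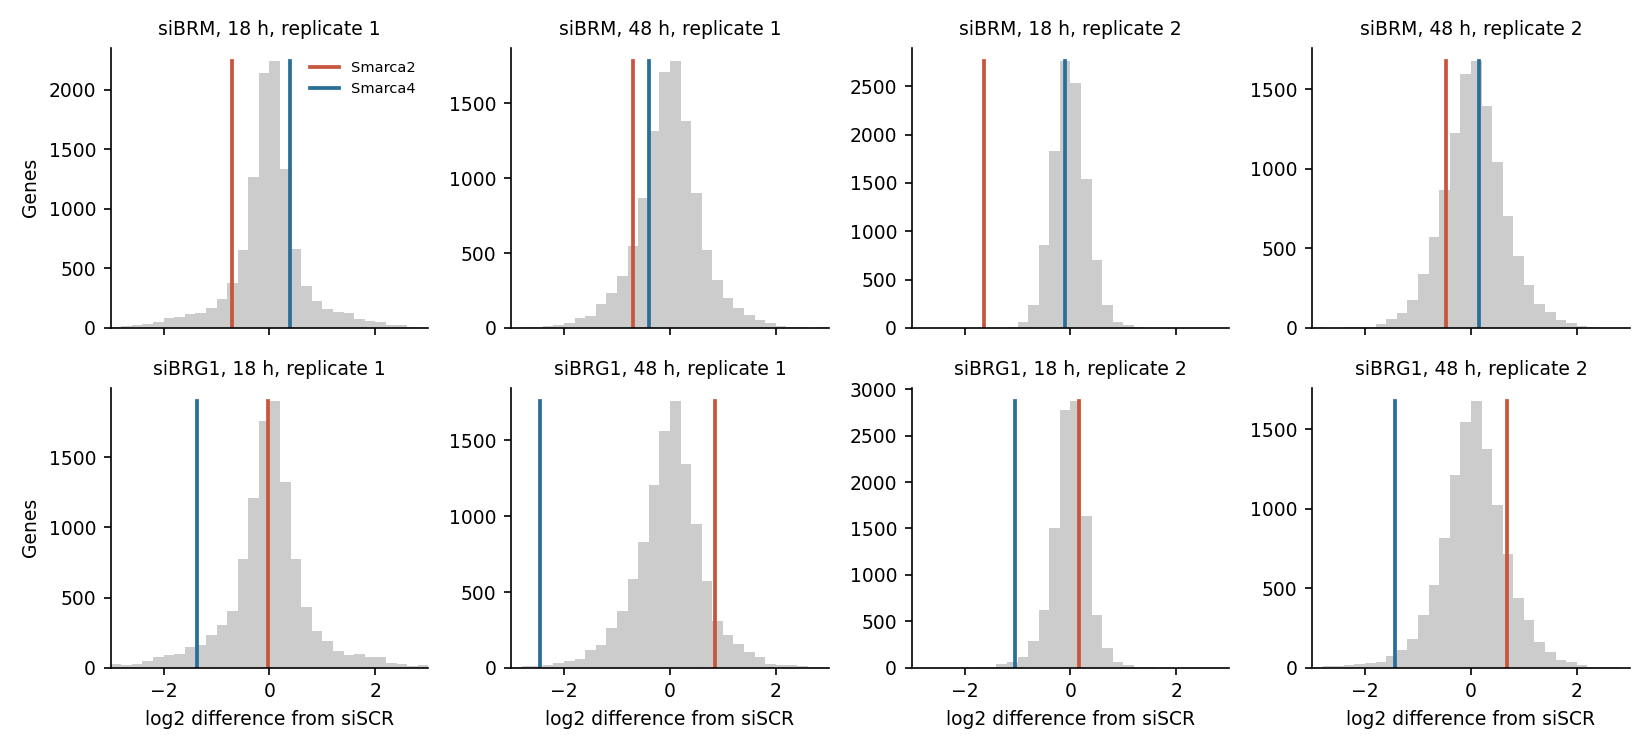
Number of tested genes (vertical axis) by log2 difference from siSCR (horizontal axis, bins of 0.2, values beyond 3 in either direction in the end bins) in each set, for siBRM (top) and siBRG1 (bottom); lines mark Smarca2 and Smarca4. Smarca2 lies at -1.63 with siBRM at 18 h in replicate 2, and Smarca4 at -1.43 with siBRG1 at 48 h in replicate 2. The Smarca4 lines with siBRG1 in replicate 1 mark values at background.

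Neither target passed the test across all probes. In limma's moderated test without a block, Smarca2 differed by -1.17 ± 0.79 (SE, n = 2) with siBRM at 18 h and by -0.59 ± 0.79 at 48 h, while the Smarca4 difference with siBRG1 was -1.21 ± 0.86 at 18 h and -1.94 ± 0.86 at 48 h. Averaged over both times, with 4 arrays a side, Smarca2 differed by -0.88 ± 0.56 and Smarca4 by -1.57 ± 0.61. The adjusted p was 1 for each of these in limma. No gene at all was called in the 4 comparisons with siSCR at single times (0% of tested genes in each), nor in the averages over the times. At an unadjusted p under 0.05 stood 34 genes with siBRM at 18 h, 17 with siBRM at 48 h, 128 with siBRG1 at 18 h and 218 with siBRG1 at 48 h, and in the averages 25 with siBRM and 296 with siBRG1. Smarca4 was among those with siBRG1 at 48 h (limma unadjusted p = 0.0493) and averaged (0.0285), as were 2.01% and 2.73% of tested genes. Its values at background in replicate 1 are included. With siBRG1 at 18 h it was not (limma unadjusted p = 0.194). Smarca2 was in none of the siBRM counts (limma unadjusted p = 0.171 at 18 h, 0.473 at 48 h and 0.148 averaged).

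Most of that error was the shift between replicates. The SD of the 2 siSCR values at 18 h was 0.80 for Smarca2 and 1.16 for Smarca4 on the log2 scale, and the shifts ran in opposite directions. On the normalized scale Smarca2 was higher in replicate 1 than in replicate 2 in every group, and Smarca4 higher in replicate 2 in every group. The unnormalized signal of both genes was higher in replicate 2 in every group, so the direction for Smarca2 depended on the normalization. With the BeadChip as a block the SE fell from 0.79 to 0.31 for Smarca2 and from 0.86 to 0.32 for Smarca4. The unadjusted 95% interval of the difference was then -1.90 to -0.45 for Smarca2 with siBRM at 18 h, -1.32 to 0.13 at 48 h, and -1.39 to -0.37 averaged over the times. For Smarca4 with siBRG1 it was -1.95 to -0.46 at 18 h, -2.69 to -1.20 at 48 h and -2.10 to -1.05 averaged, including the values at background of replicate 1. In this blocked limma fit the adjusted p was 1 for Smarca2 at 18 h and 0.999 at 48 h, 0.818 for Smarca4 at 18 h, 0.171 at 48 h and 0.12 averaged. The blocked fit also called 0 genes (0%) in these 4 comparisons, with 280, 243, 657 and 1150 genes at an unadjusted p under 0.05 in the order given above. With the BeadChip as a random term, Smarca4 averaged over the times passed in limma (adjusted p = 0.0435), among 0.47% of genes called. At 48 h it passed with the BeadChip as a fixed block after median scaling (-1.92, limma adjusted p = 0.0138, 2.53% of genes called) and without background correction (-0.99, limma adjusted p = 0.0368, 0.738% called).

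An exact permutation test that uses no estimate of spread compared the targeted array with the mean of the other 2 arrays of its set. Moving the label over the 3 arrays of each of the 4 sets gives 81 placements, so the smallest possible p is 0.0123. Smarca2 was lowest on the siBRM array in 4 of 4 sets, by a mean of -1.09 on the log2 scale (exact two-sided p = 0.0123). Smarca4 was lowest on the siBRG1 array in 4 of 4 sets, by a mean of -1.58 (exact two-sided p = 0.0123), with the undetected values of replicate 1 taken at their measured level. A siBRM array lowest in all 4 sets was seen in 1.2% of the tested genes, and a siBRG1 array lowest in all 4 in 4.86%. Of the 12 such tests run over 6 probes and both targeting siRNAs, 3 reached the smallest p, with no adjustment made. The remaining one was the undetected Smarca2 probe ILMN_2598033, lowest on the siBRG1 array in 4 of 4 sets by a mean of -0.37.

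The other Smarca2 probes did not show the fall with siBRM above their background. The unnormalized signal of ILMN_3075712 was lower with siBRM than with siSCR in 4 of 4 sets, by 18.5 to 86.9 units, but it was detected on 1 of these 8 arrays. The unnormalized signal of the second tested probe, ILMN_1240192, was lower in 2 of 4 sets. After quantile normalization it was lower in none, with differences of 0.893 and 0.342 at 18 h and of 0.002 and 0.031 at 48 h. In limma it differed by 0.62 ± 0.50 (SE, n = 2) at 18 h and by 0.02 ± 0.50 at 48 h, with an adjusted p of 1 for both. The unnormalized signals of ILMN_2598033 and ILMN_1252932 were lower in 2 of 4 sets each. With the mean of both tested probes in place of ILMN_3154810, the siBRM difference was -0.28 at 18 h and -0.29 at 48 h. The fall of Smarca2 on these arrays thus rests on the values of 1 probe.

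Smarca2 was higher with siBRG1 than with siSCR at 48 h in both replicates. Its unnormalized signal was 1175 ± 47.7 (bead standard error) against 914.2 ± 34.3 in replicate 1 and 1663 ± 98.9 against 1374 ± 46.7 in replicate 2, which were the highest Smarca2 signals of their replicates. After quantile normalization these were 180% and 160% of siSCR, and across the 5 scalings 138% to 180% and 126% to 160%. The log2 values (11.05 and 9.89 against 10.20 and 9.21) overlapped between the groups, and 30% of the tested genes were above siSCR in both replicates of this comparison. The difference was 0.76 ± 0.79 (SE, n = 2) with an adjusted p of 1 in limma, and was 0.46 under median scaling and 0.40 with no normalization between arrays. With the BeadChip as a block its unadjusted 95% interval was 0.04 to 1.49 with an adjusted p of 0.485.

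At 18 h Smarca2 with siBRG1 was close to siSCR. Its unnormalized signal was 563.9 ± 37.5 (bead standard error) against 602.9 ± 28.4 in replicate 1 and 1295 ± 41.7 against 1280 ± 65.7 in replicate 2, and both gaps were under 1 bead standard error of the difference. The difference of 0.07 had a blocked 95% interval of -0.66 to 0.79 on the log2 scale, and its sign turned under median scaling (-0.01) and with no normalization between arrays (-0.04). The siBRG1 effect on Smarca2 was 0.70 ± 1.12 higher at 48 h than at 18 h (0.87 in replicate 1 and 0.52 in replicate 2), which did not pass in limma (adjusted p = 1). Its blocked 95% interval was -0.33 to 1.72, so a difference between the times was not shown.

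Smarca4 with siBRM had no common direction. At 18 h its unnormalized signal was 293.5 ± 14.2 (bead standard error) against 280.8 ± 9.31 with siSCR in replicate 1 and 1171 ± 55.3 against 1132 ± 57.6 in replicate 2. At 48 h it was 323.9 ± 14.1 against 430.5 ± 30.9 in replicate 1 and 957.4 ± 54.8 against 1294 ± 58.5 in replicate 2. The siBRM arrays were thus a little brighter at 18 h and dimmer at 48 h, where the mean signal of the whole siBRM array was lower too (705 against 794 in replicate 1 and 1218 against 1644 in replicate 2). After quantile normalization the differences were 0.38 and -0.11 at 18 h and -0.40 and 0.15 at 48 h, and in limma 0.14 ± 0.86 and -0.12 ± 0.86 (SE, n = 2; adjusted p = 1 for both). With the BeadChip as a block the unadjusted 95% interval was -0.61 to 0.89 at 18 h, -0.87 to 0.62 at 48 h and -0.52 to 0.54 averaged over the times. These intervals describe the precision of each estimate and are not limits of detection. With siBRG1 at 48 h even a Smarca4 difference of -1.94 ± 0.32 (SE) was not called in this blocked fit (limma adjusted p = 0.171).

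**Figure D4:**
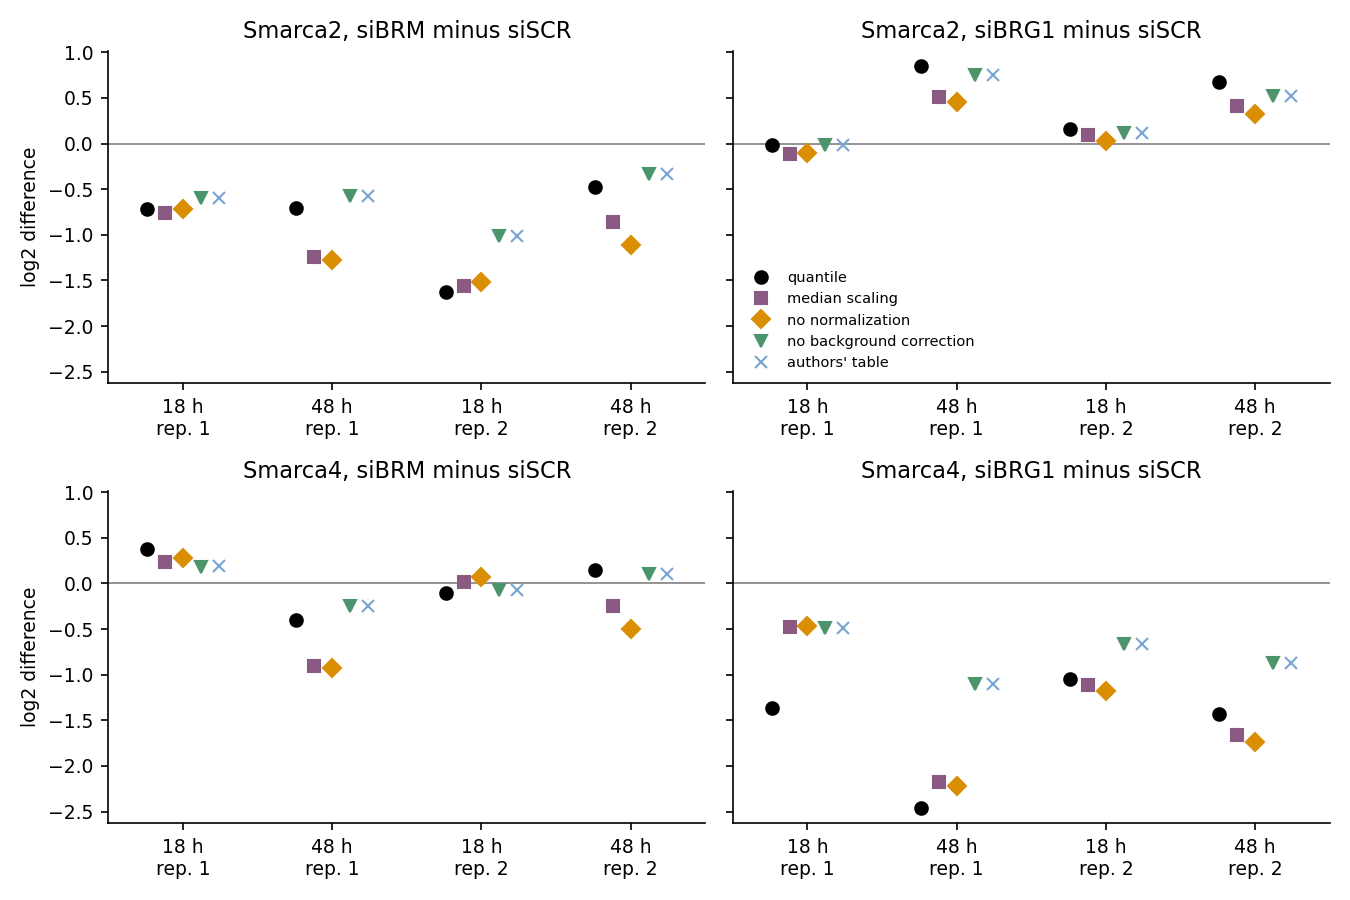
Log2 difference from siSCR (vertical axis) of Smarca2 (top) and Smarca4 (bottom) with siBRM (left) and siBRG1 (right) in each set of arrays, under 5 scalings shown by symbol. Smarca2 lies below 0 in all sets with siBRM and above 0 at 48 h with siBRG1, Smarca4 lies below 0 in all sets with siBRG1 (at background in replicate 1), and Smarca4 with siBRM falls on both sides of 0.

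Set against each other, the targeting siRNAs parted the genes in both directions. Smarca2 was lower with siBRM than with siBRG1 by -1.24 at 18 h (-0.69 and -1.79 in replicates 1 and 2) and by -1.36 at 48 h (-1.56 and -1.15) on the log2 scale. Smarca4 was higher with siBRM than with siBRG1 by 1.34 at 18 h (1.75 and 0.94) and by 1.82 at 48 h (2.06 and 1.58), with the replicate 1 values resting on siBRG1 arrays at background. The blocked 95% intervals were -1.97 to -0.51 and -2.08 to -0.63 for Smarca2, and 0.59 to 2.09 and 1.07 to 2.57 for Smarca4. None passed in limma with the BeadChip as a block (adjusted p = 0.638, 0.278, 0.616 and 0.171 in that order).

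Ordered by group mean on the log2 scale (± SD, n = 2), Smarca2 was highest with siBRG1 at 48 h (10.47 ± 0.82), followed by siBRG1 at 18 h (9.94 ± 0.68), siSCR at 18 h (9.87 ± 0.80), siSCR at 48 h (9.70 ± 0.70), siBRM at 48 h (9.11 ± 0.54) and siBRM at 18 h (8.70 ± 1.45). Smarca4 was highest with siSCR at 48 h (8.85 ± 0.36), followed by siBRM at 48 h (8.73 ± 0.74), siBRM at 18 h (8.41 ± 0.81), siSCR at 18 h (8.27 ± 1.16), siBRG1 at 18 h (7.07 ± 1.38) and siBRG1 at 48 h (6.91 ± 1.09). No neighbours in the Smarca2 order differed by more than the larger of their SD. In the Smarca4 order none did either. Within each replicate the order was firmer, as both siBRM arrays were the lowest for Smarca2 and both siBRG1 arrays the lowest for Smarca4.

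Between 18 h and 48 h of differentiation neither ATPase gene changed in siSCR cells by an amount that passed the test. The log2 step of Smarca2 was -0.17 ± 0.79 (SE, n = 2), made up of -0.24 in replicate 1 and -0.09 in replicate 2, and that of Smarca4 was 0.58 ± 0.86 (1.14 and 0.02), with an adjusted p of 1 for both in limma, where 0.323% of genes were called. The 2 times of replicate 1 lie on different BeadChips and cannot be told apart from them, so replicate 2 alone gives the step on 1 BeadChip. In replicate 2 myogenin (Myog), which drives terminal differentiation, went from 11.04 to 13.90 on the same scale and the muscle creatine kinase gene Ckm from 7.68 to 13.10. With the BeadChip as a block both passed (limma adjusted p = 0.0106 and 0.0111), and without it neither did (0.213 and 0.123). Between the same arrays of replicate 2 Smarca2 went from 9.30 to 9.21 and Smarca4 from 9.09 to 9.10. The Smarca4 step was 0.31 with the BeadChip as a block, 0.93 under median scaling and 1.09 with no normalization between arrays. In the blocked fit the steps in siSCR cells, those of Myog and Ckm included, also draw on the siBRM and siBRG1 arrays. The sign of the Smarca2 step turned with the scaling. It was 0.34 under median scaling and 0.51 with no normalization between arrays, on which scales the median tested gene stood at 0.27 and 0.43.

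Under the targeting siRNAs the steps between the times were uneven. Smarca2 with siBRM differed between 48 h and 18 h by -0.23 in replicate 1 and by 1.06 in replicate 2, where 4.45% of tested genes had a step as high. The siBRM effect on Smarca2 was 0.58 ± 1.12 less negative at 48 h than at 18 h, by 0.01 in replicate 1 and 1.15 in replicate 2, and did not pass (limma adjusted p = 1, blocked 95% interval -0.45 to 1.61). Smarca2 with siBRG1 differed between the times by 0.63 and 0.43 in the replicates. Smarca4 with siBRM differed by 0.36 and 0.27, and with siBRG1 by -0.37 in replicate 2, its arrays of replicate 1 being at background at both times. The siBRG1 effect on Smarca4 differed by -0.74 ± 1.22 between 48 h and 18 h (limma adjusted p = 1, blocked 95% interval -1.80 to 0.32). The difference was -1.10 in replicate 1 and -0.38 in replicate 2. With siBRG1 of replicate 1 at background, its value is mainly the siSCR step of 1.14 between different BeadChips.

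The genes of the complexes around the ATPases showed no call. Of 28 SWI/SNF subunit genes, all on the array, 24 were tested. Among them were the ARID subunits that mark the BAF and PBAF forms and the core subunits Smarcb1 and Smarcc1. The BAF60 subunits Smarcd2 and Smarcd3 were tested too, while the BAF60 subunit Smarcd1 was not. In limma 0 of 24 were called in either direction with siBRM or siBRG1 at either time, with or without the BeadChip as a block. At an unadjusted p under 0.05 stood 0 in each comparison without the block, and with it 0 with siBRM at either time, 2 with siBRG1 at 18 h and 3 with siBRG1 at 48 h. At that threshold stood 6.06% and 10.6% of all tested genes with siBRG1 at 18 h and 48 h, so the counts among the 24 are near the share of all genes. Their median log2 difference was -0.12 with siBRM at 18 h, 0.04 with siBRM at 48 h, 0.08 with siBRG1 at 18 h and 0.16 with siBRG1 at 48 h, against -0.01, 0.03, 0.00 and 0.04 over all tested genes. The members with the smallest unadjusted p averaged over the times were Bcl11a (-0.39 ± 0.45, SE) and Ss18 (0.27 ± 0.32) with siBRM. With siBRG1 they were Arid1a (0.52 ± 0.31), the DNA-binding subunit of the BAF form, and the PHD-finger subunit gene Dpf2 (0.85 ± 0.54), all with a limma adjusted p of 1. Bcl11a and Dpf2 were each detected on only 2 arrays, and Dpf2 was higher by 2.11 and 1.39 in replicate 1 but differed by -0.24 and 0.16 in replicate 2.

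Of 22 other SNF2-family ATPase genes 20 were on the array and 16 were tested, and 0 were called in those comparisons by either limma fit. At an unadjusted p under 0.05 stood 0 without the block, and with it 1 with siBRM at 48 h, 2 with siBRG1 at 48 h and 0 in the other two comparisons, beside 2.24% and 10.6% of all tested genes in the comparisons with 1 and 2. The median differences of the 16 ATPase genes were -0.08 and 0.10 with siBRM and 0.06 and 0.14 with siBRG1 at 18 h and 48 h. The 4 reference genes Gapdh, Actb, Hprt and Tbp had median differences of -0.01 and 0.04 with siBRM and 0.05 and 0.21 with siBRG1 at 18 h and 48 h, with 0 called and 0 at an unadjusted p under 0.05 in limma. Among the ATPase genes the smallest unadjusted p averaged over the times belonged to the recombination translocase gene Rad54l (0.56 ± 0.50, SE) and the fork-remodelling helicase gene Smarcal1 (-0.48 ± 0.49) with siBRM. With siBRG1 they belonged to Chd4 (-0.43 ± 0.32), the ATPase of the NuRD complex, and again to Rad54l (0.63 ± 0.50), each with a limma adjusted p of 1. Chd4 was lower with siBRG1 in 4 of 4 sets, by -0.34 and -0.70 in replicate 1 and by -0.15 and -0.53 in replicate 2 at 18 h and 48 h, a pattern shared by 10.2% of tested genes. Rad54l was higher in 4 of 4 sets with siBRG1 (0.60 and 0.47 in replicate 1, 0.23 and 1.22 in replicate 2) and in 4 of 4 with siBRM (0.74 and 0.32, 0.02 and 1.17), as were 12% and 5.08% of tested genes. In siSCR cells Rad54l differed by -1.80 between the times. With the BeadChip as a block it was the only member of these lists called (-2.05, limma adjusted p = 0.0422), in a comparison with 1.65% of genes called. That blocked step also draws on the siBRM and siBRG1 arrays.

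The genes most like each ATPase gene were taken by Pearson correlation over the 12 arrays after the mean of each BeadChip was subtracted, as a description over points that share BeadChips. The 12 include the siBRM and siBRG1 arrays. The differences of these genes with either siRNA therefore follow in part from how they were picked, and are no separate result. For Smarca2 the 5 highest of 10846 genes were Dcakd (r = 0.918), the insulin-like growth factor receptor gene Igf1r (0.904), Ace3 (0.893), Tex264 (0.893) and Lrfn3 (0.886), with the 95th percentile of all genes at 0.536. With siBRM their differences at 18 h ran from -0.64 to -0.13, against -1.17 for Smarca2. Igf1r differed by -0.40 and -0.19 with siBRM and by 0.34 and 0.40 with siBRG1 at 18 h and 48 h. Ace3 was detected on 5 arrays, and the other 4 genes on all 12. For Smarca4 the 5 highest were 6430548M08Rik (r = 0.952), Nrarp (0.941), Slc37a2 (0.939), the adaptor gene Bcar1 (0.937) and the calmodulin kinase gene Camk2g (0.936), with the 95th percentile at 0.624. Nrarp was detected on 10 arrays, Slc37a2 on 9 and the others on all 12. The Smarca4 values used include those at background with siBRG1 in replicate 1. At 18 h and 48 h with siBRG1, 6430548M08Rik differed by -1.54 and -2.34, and Slc37a2 by -0.67 and -1.81, while Bcar1 differed by -0.33 and -0.61. Smarca2 and Smarca4 themselves had r = -0.641 on these values, which include the arrays where each was the target.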

How the data were processed

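Transcripts of 12 C2C12 samples were read on Illumina mouse BeadChips. The deposited intensities of the unnormalized table are bead-averaged signals per probe on a linear scale. Beside them, per the file headers, stand bead numbers, bead standard errors and the authors' detection p-values, which compare a probe with the array's negative controls. The authors' second table of intensities has column medians of 248.7 to 249.3, ranks probes as the first does, and is taken as quantile normalized. GenomeStudio 2009.1 is named in the submitters' processing notes, and no source used here gives further steps.

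Background was inferred from detection p (normexp, offset 16), followed by quantile normalization and log2. Probes with detection p under 0.05 on at least 2 arrays were tested (20415 probes, 10847 genes). Of all probes 34885 had 1 gene symbol, 18 several and 10378 none. Each gene was represented by whichever of its tested probes had the highest mean. limma 3.58.1 (R 4.3.3, statmod 1.5.0) fitted 6 group means without a block, two-sided, with Benjamini-Hochberg adjustment over tested probes and a call at adjusted p under 0.05. It was tested on simulated data. Replicate deviations correlated between all 15 pairs of groups (r = 0.449 to 0.825). As the replicates lie on different BeadChips, a pairing by replicate number cannot be told apart from a BeadChip shift. Values with the BeadChip as a block therefore stand beside the results. The number of arrays limits the precision. "Percent left" is the ratio to siSCR of signals that include the offset. The genes named are both members, 5 like genes each, and from the SWI/SNF and ATPase lists the called members or the 2 with the smallest p. The members, lists and tests were chosen with earlier results of these data known. Gene symbols come from the platform annotation. Alternatives concerned the block, normalization, background, filter, probe and left-out arrays.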

Additional observations from a re-analysis of the deposited data

How the results depend on the processing

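Over 14 alternatives of block, normalization, background, filter and probe, Smarca2 with siBRM lay between -1.17 and -0.28 at 18 h and between -1.20 and -0.29 at 48 h, the smallest sizes being the mean of both tested probes, and Smarca4 with siBRG1 between -1.21 and -0.58 and between -1.98 and -0.99. Smarca2 with siBRG1 at 48 h lay between 0.40 and 0.76, and the Smarca4 step in siSCR cells between 0.18 and 1.09. The exact permutation p of both targets was the same under median scaling, without background correction and in the authors' table. The alternatives are not independent. The authors' table nearly equals the values without background correction, and median scaling differs from no normalization only by a shift of each array. Smarca4 with siBRG1 passed at 48 h in limma fits with the BeadChip as replicate block after median scaling (-1.92, adjusted p = 0.0138), without background correction (-0.99, adjusted p = 0.0368), in the authors' table (-0.99, adjusted p = 0.0371) and without normalization between arrays (-1.98, adjusted p = 0.00762), an alternative chosen after seeing the data. The Smarca4 average over the times passed in the same 4 blocked fits (-1.36, -0.78, -0.78 and -1.40) and with the BeadChip as a random block (-1.57). In that average 0.47% of tested genes were called with the random block. The share called in the 4 blocked fits was not counted, so these passes cannot be set against it. Genes called with siBRG1 at 48 h numbered 0 in the unblocked fit, 11 with the random block, 274 with median scaling and the block, 362 with no normalization and the block, and 80 with the block either without background correction or in the authors' table. For siSCR over time the calls went from 35 to 0 with median scaling or no normalization, 179 with the BeadChip block, 287 with the replicate block, 300 with the random block, 740 with median scaling and the block, 777 with no normalization and the block, and 550 with the block either without background correction or in the authors' table. Signs turned for differences near 0, with or without the BeadChip block: Smarca2 with siBRG1 at 18 h was -0.015 with median scaling and -0.038 unnormalized, and Smarca4 with siBRM averaged over the times was -0.22 with median scaling, -0.0061 without background correction, -0.0059 in the authors' table and -0.27 unnormalized. The Smarca2 step in siSCR cells was 0.042 with the block, 0.34 and 0.12 with median scaling without and with it, 0.51 and 0.24 unnormalized, and 0.12 as the mean of tested probes. On the quantile-normalized scale both siSCR replicates fell (-0.24 and -0.09). The blocked steps also draw on the siBRM and siBRG1 arrays, from which the turn to 0.042 comes. The cause of the other turns was not tested. Leaving out each array in turn, with and without the BeadChip block, the fits pooled the spread and a lone array was assumed to vary like the others. The ranges were then -2.20 to -0.14 and -1.08 to -0.10 for Smarca2 with siBRM at 18 h and 48 h, -2.18 to -0.23 and -2.72 to -1.17 for Smarca4 with siBRG1, -0.50 to 0.64 and 0.18 to 1.35 for Smarca2 with siBRG1 at 18 h and 48 h, -0.68 to 0.95, -0.65 to 0.40 and -0.40 to 0.42 for Smarca4 with siBRM at 18 h, at 48 h and averaged, and -0.73 to 0.40 and -0.24 to 1.40 for the siSCR steps of Smarca2 and Smarca4. Calls over time in siSCR cells then ranged from 0 to 24 without the block and from 0 to 940 with it, the highest without siSCR 48 h replicate 1. With 2 arrays a group and Smarca4 at background in siBRG1 of replicate 1, the size of its fall there has only a bound.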
